A study of Danio rerio with 246 samples.

Results

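The cells described here are 22 single cells of the zebrafish kidney marrow that held the transcript s100a10b, set against 21 cells of the same sort that did not. All 43 cells carry the name cd41_GFPlow and came from plate 3, out of 246 single cells in the series. A cell was chosen as positive when s100a10b (gene ENSDARG00000025254 in the deposited counts) reached at least 10 counts per 1000000 reads (CPM) of that cell, and as negative otherwise. The level of s100a10b therefore chose the sides, its own values are a description, and the gene is left out of every count that follows.

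In mammals the protein S100A10 pairs with annexin A2 at the inner face of cell membranes, where the pair helps to bring plasminogen and other proteins to the cell surface. It belongs to the S100 family of small proteins, most of which bind calcium. Macrophages engulf particles and break them down in lysosomes, neutrophils carry granules of proteases and microbicidal proteins, and progenitors divide and give rise to both and to red blood cells. The kidney marrow is the organ in which adult zebrafish make blood.

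Cells were sorted by fluorescence one to a well and their RNA was copied by a variant of Smart-seq2, which amplifies polyadenylated RNA along its length. The series holds 6 reporter lines by name, and only cd41_GFPlow is compared within itself here. The name points to low green fluorescence under a cd41 reporter, and cd41 is another name of itga2b, an integrin gene of thrombocytes and early blood cells. The labels give for these cells the tissue, plate and well, and no genotype beyond the reporter name, strain, age, treatment or number of animals. Both sides thus belong to 1 sample. No p-value was made between them, and the differences are given by size, with exact 95% intervals for counting error of reads or cells only. Such reads are PCR copies and do not count molecules one by one.

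The split fell in a wide gap. The positive cells had 143 CPM of s100a10b at the lowest, 2555 CPM at the median and 5573 CPM at the highest. Of the 21 negative cells 19 had no read, and the others had 0.936 and 2.13 CPM. The values nearest to the threshold were thus 2.13 CPM below it and 143 CPM above it, followed by 231 and 240 CPM. The positive share was 51.2% (exact Clopper-Pearson interval 35.5 to 66.7%). Outside this line the transcript was rare. It reached 10 CPM in 4 of 47 mpx_EGFP cells, at 47.03 to 358 CPM, in 1 of 31 lck_GFP_rag1 cells, at 1319 CPM, and in none of the 39 Runx123_GFP, 48 rag2_GFP and 38 lck_GFP cells. The lines were on other plates, so line and plate cannot be told apart.

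**Figure D1:**
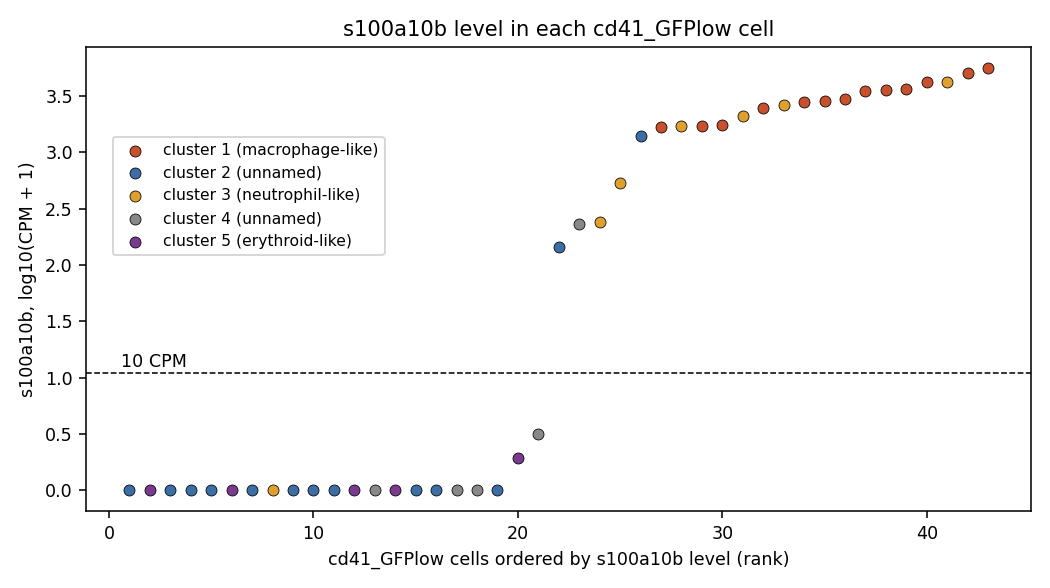
Level of s100a10b, as log10(CPM + 1), in each of the 43 cd41_GFPlow cells in rising order, with the threshold of 10 CPM as a dashed line. Colours show the cluster of each cell, found without s100a10b; the 13 cells of cluster 1 lie between 1670.5 and 5573 CPM and all 5 cells of cluster 5 lie below the threshold.

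Depth and quality were similar on both sides. Positive cells had 268422 to 1715923 assigned reads (median 1120098.5) and negative cells 470395 to 1758073 (median 1090375). Detected genes were 1661 to 4019 (median 2709) in positive and 696 to 4449 (median 2940) in negative cells, and medians were 2421.5 and 2537 after each cell was thinned to 200000 reads. Median uniquely mapped read pairs were 82.9 and 83.5%, PCR duplicates 17.6 and 17.4%, and mitochondrial messenger RNA 2.07 and 2.59% of reads. The gene itga2b, after which the sort is named, reached 10 CPM in 0 of 43 cells. A floor of 3 cells puts that share at up to 6.98%, which is not an exact interval limit. The highest itga2b value, in a positive cell, was 9.33 CPM.

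Positive cells carried macrophage, complement, neutrophil, lysosome and annexin transcripts at higher levels, and negative cells those of DNA replication and red cell formation. A gene was measured at 10 CPM in the summed reads of at least 1 side. It was called where the sums differed at least 4-fold, as log2((CPM + 1)/(CPM + 1)), and the share of cells at 10 CPM differed by at least 20 percentage points the same way. Of 9354 measured genes, 561 were higher in positive cells (6%) and 387 were lower (4.14%). These shares are the background for the count of called genes in each list below. Where a gene is given below with a single CPM value per side, the value is of the summed reads of all cells of that side. Numbers of cells beside it are of cells at 10 CPM. By fold alone the counts were 1835 (19.6%) and 1780 (19%), since the rule on shares asks for several cells. The median log2 ratio of all measured genes was -0.07. Without the 2 negative cells that had under 1000 detected genes, 602 genes were lower.

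**Figure D2:**
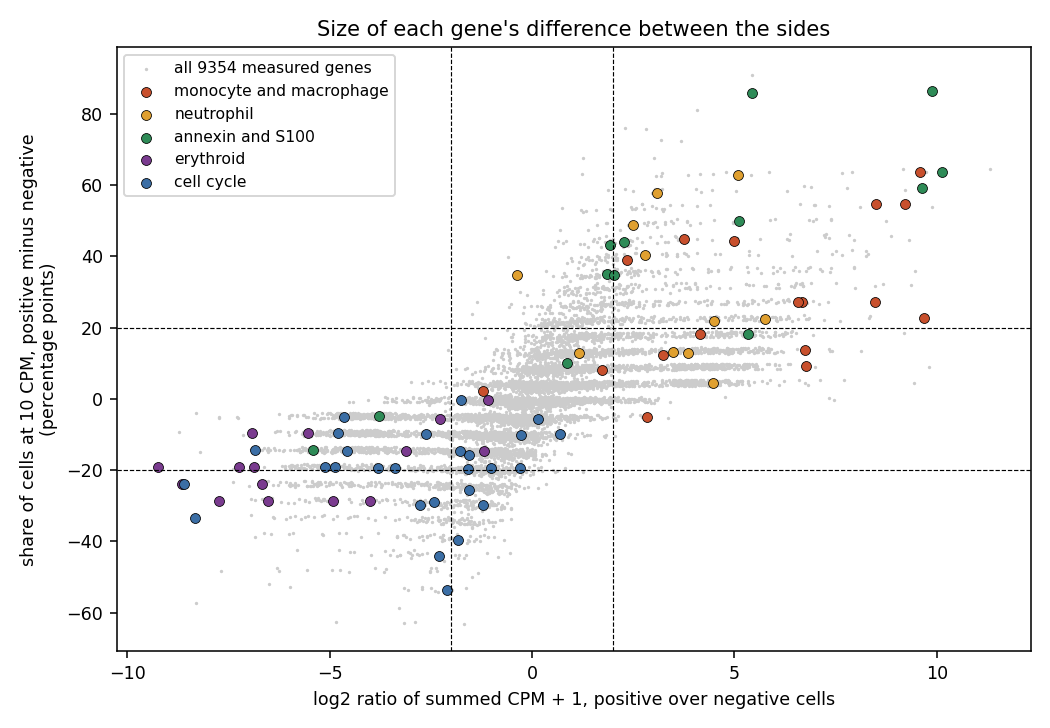
Each point is 1 of 9354 measured genes, with the log2 ratio of summed CPM, positive over negative, on the x axis and the difference in the share of cells at 10 CPM on the y axis. Dashed lines mark 4-fold and 20 percentage points; macrophage, neutrophil and annexin and S100 genes lie mostly to the upper right, and erythroid and cell cycle genes to the lower left.

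Annexin genes and a relative of s100a10b were higher in positive cells. Of 13 measured annexin, S100 and related genes, 7 were called higher and 0 lower in positive cells, against the background of 6% and 4.14% of all measured genes, and their median log2 ratio was 2.27. The gene anxa2, named for the annexin that S100A10 binds in mammals, was at 0 to 2376 CPM (median 857) in the 22 positive cells and at 0 to 4.25 CPM in the negative cells, where 20 of 21 had none. It reached 10 CPM in 19 positive and 0 negative cells, so the sides overlapped only through 3 positive cells. Its summed level was 1018 CPM (exact Poisson interval 1006 to 1031) against 0.0843 CPM, the latter from 2 reads, a ratio of 12077 (3343 to 99732).

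The gene icn, for ictacalcin, another small S100 protein of fish, was at 64.6 CPM at the lowest, 1289 CPM at the median and 2018 CPM at the highest among positive cells. Among negative cells it was at 0 to 486 CPM with a median of 0. All 22 positive and 3 negative cells reached 10 CPM, and the ranges overlapped only through the highest negative cells. The summed level was 44.5-fold higher (41.2 to 48.2). Further annexins followed the same direction. The gene anxa1, whose mammalian product dampens inflammation, was at 1156 CPM in the positive sum, with 14 of 22 cells at 10 CPM. It had 1 read on the negative side. The gene anxa5b, whose product binds exposed phosphatidylserine, was at 828 CPM in the positive sum, with 13 of 22 cells at 10 CPM, also against 1 read. The gene anxa3b was 36.98-fold higher (33.2 to 41.4), in 12 positive and 1 negative cell. In contrast, anxa4 was at 571 and 315 CPM, in 19 and 16 cells, and was not called. The symbols anxa1 and anxa2 carry no copy letter in the gene name table, so which zebrafish copy each stands for is uncertain.

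A small set of transcripts was near universal in positive cells and rare in negative ones. These genes were chosen after their values were seen, by the size of the difference in share. The gene tmsb1, for a thymosin that holds actin monomers, was at 55.6 to 1454 CPM (median 609.8) in positive cells and at 0 to 148 CPM in negative cells, with 22 and 2 cells at 10 CPM. The adaptor gene fcer1gl, related to the gamma chain of Fc receptors, was at 158 to 3276 CPM (median 1473) against 0 to 1402 CPM, with 22 and 4 cells. The transcription factor gene cebpb, which acts in myeloid cells under stress and inflammation, was at 0 to 2797 CPM (median 582) against 0 to 326 CPM, with 21 and 5 cells. For each of these genes the median of the negative cells was 0. Every positive cell lay above that median, apart from 1 cell for cebpb, while the highest negative cells reached into the positive range. Large differences in share were also found for ckb, a creatine kinase gene (20 against 3 cells), arpc4, a subunit gene of the complex that branches actin filaments (21 against 4 cells), and mrtfab, a cofactor of serum response factor (19 against 3 cells). The actin cytoskeleton list as a whole was high on both sides. Of its 21 measured genes, 20 had a log2 ratio above 0 with a median of 1.504. Called higher were 4, namely tmsb1, cotl1, myo1f and evl, against 6% of all measured genes.

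**Figure D3:**
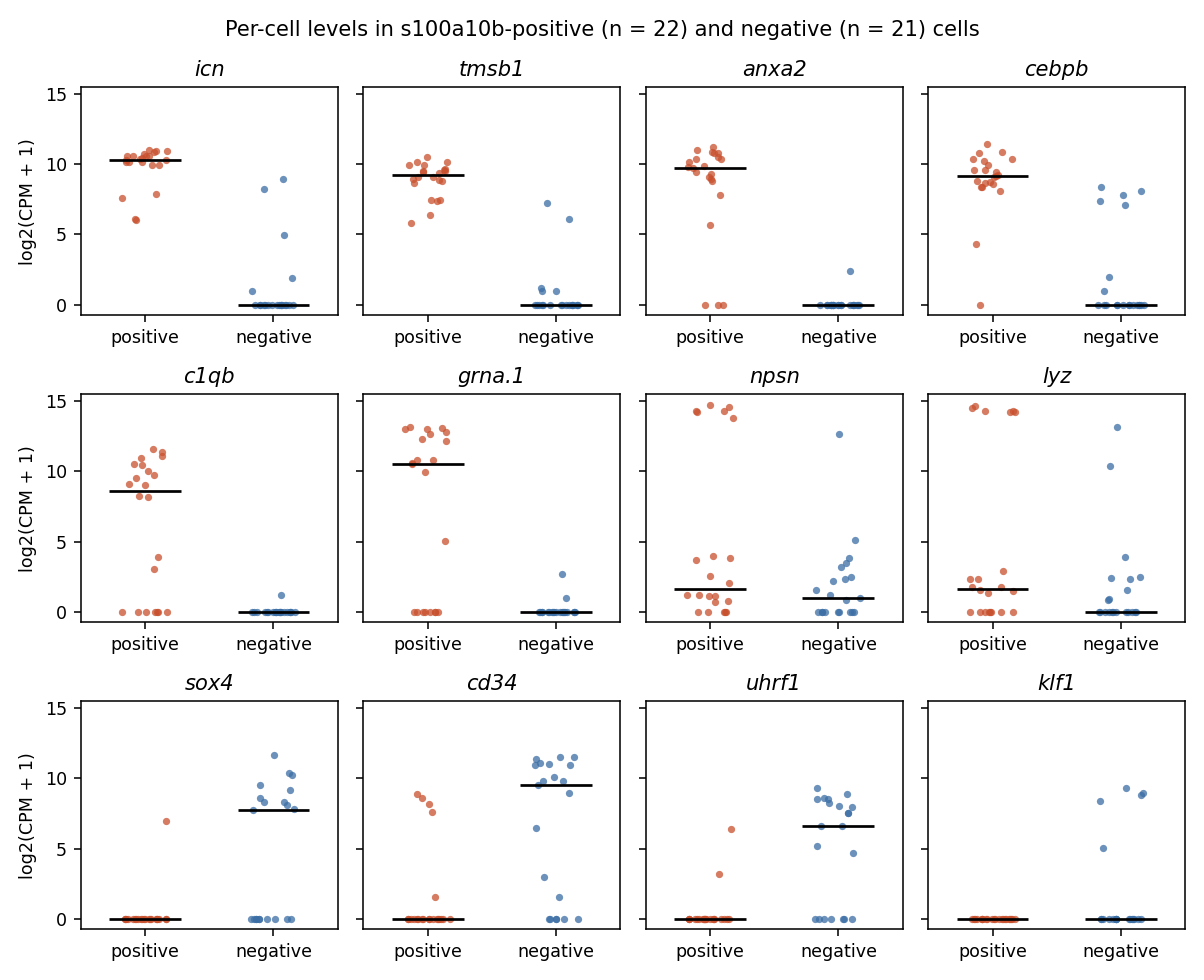
Level of 12 genes, as log2(CPM + 1), in each positive (n = 22) and negative (n = 21) cell; horizontal bars are medians. The top row is near universal in positive cells, the middle row splits them into macrophage and neutrophil transcripts, and the bottom row is higher in negative cells.

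Macrophage transcripts marked most positive cells. Of 17 measured monocyte and macrophage genes, 10 were called higher and 0 lower, and the median log2 ratio was 6.56, or 8.50 with genes at 0 reads on 1 side set at their bounds. At least 3 genes of the list were at 10 CPM in 15 of 22 positive cells (68.2%; 45.1 to 86.1%) and in 5 of 21 negative cells (23.8%; 8.22 to 47.2%). The granulin gene grna.1, whose product is a growth factor precursor, had the largest log2 ratio among the genes named by size, 11.30. It was at 0 to 9061 CPM (median 1470.0) in positive cells, 14 of them at 10 CPM, and at most 5.32 CPM in a negative cell.

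The genes c1qa, c1qb and c1qc encode the chains of complement C1q, which mammalian tissue macrophages make. They were at 376, 804 and 598 CPM in the positive sum and reached 10 CPM in 12, 14 and 12 of 22 cells. In single positive cells c1qb ranged from 0 to 3141 CPM with a median of 408 CPM. On the negative side c1qa and c1qb had 1 read each and c1qc none, which puts c1qc at least 4727-fold higher when that side is set at 3 reads. No negative cell reached 10 CPM of any of these. The mannose receptor gene mrc1b, an uptake receptor, was at 0 to 4048 CPM (median 253) in positive cells, 14 of them at 10 CPM, with no read in negative cells (at least 6321-fold). The receptor gene csf1ra, for the growth factor of macrophages, was at 93.7 CPM in the positive sum, with 6 cells at 10 CPM, and absent from the negative reads. Its paralogue csf1rb went the other way, at 219 and 510.3 CPM in 12 and 11 cells, and was not called. A single positive cell of high lysosome and macrophage levels weighed on some sums. The gene marco, for a scavenger receptor, had 824 CPM, but 75.1% of its reads came from 1 cell and 5 cells had it. The protease gene lgmn likewise had 82.9% of its positive reads in 1 cell and was not called. With each gene's highest cell on each side left out, the count of macrophage genes called higher was again 10. The perforin-like gene mpeg1, often used as a macrophage marker in zebrafish, was at 225 and 66.9 CPM, in 6 and 4 cells, and was not called. The table names several mpeg1 and mfap4 genes, and near-identical copies may share reads.

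Complement reached beyond C1q. A complement list was added after the values were seen, so its counts are a description only. Of its 10 measured genes, 7 were called higher and 0 lower, and the median log2 ratio was 8.21. The gene cfbl, related to factor B of the alternative pathway, was at 0 to 3042 CPM (median 519) in positive cells, 14 of them at 10 CPM, and had no read in negative cells. The gene cfd, for factor D, which cuts factor B, was at 1186 CPM against 0.674 CPM, in 9 positive cells and 1 negative cell. One cell gave 39.4% of its positive reads. It was in 3 of 15 positive cells with the macrophage list (median 0) and in 6 of 7 without it (median 2495 CPM). The gene cfp, for properdin, which steadies that pathway's convertase, was in 9 positive cells and had 1 read in the negative cells. The regulator gene cfh was 305-fold higher (209.5 to 463). At least 3 genes of this list, chosen with the values known, were present in 19 of 22 positive and 0 of 21 negative cells. A floor of 3 cells puts the negative share at up to 14.3%, and its exact interval reaches 16.1%. The other genes named by size on this side were c1ql1, related to C1q, at 634 CPM, the monooxygenase gene moxd1 at 465 CPM and a fibronectin gene, fn1, at 449 CPM. They reached 10 CPM in 10, 10 and 11 positive cells, with 0, 0 and 1 reads on the negative side.

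Neutrophil transcripts were very high in fewer positive cells. Of 11 measured neutrophil genes, 6 were called higher and 0 lower, and the median log2 ratio was 3.48. The gene npsn, for a secreted metalloprotease of zebrafish neutrophils, was at 0 to 27251 CPM in positive cells with a median of 2.23 CPM, and at 0 to 6352 CPM in negative cells. The values fell apart within the positive side. In 6 positive cells npsn was at 13841 to 27251 CPM, and in the others it was at most 14.9 CPM. The lysozyme gene lyz, whose product digests bacterial walls, was at 18547 to 25492 CPM in the same 6 cells and at most 6.58 CPM in the other positive cells. A peroxidase gene named epx was at 4895 to 8495 CPM in those 6 and at most 7.45 CPM in the others. Its relation to the gene known as mpx was not resolved. The transcription factor gene cebp1, which acts in granule formation in zebrafish neutrophils, was at 627 to 2106 CPM in those 6. It was at most 0.636 CPM in the other positive cells. In the negative cells without the macrophage list cebp1 was at 243 CPM in the sum, with 3 cells at 10 CPM, 1 of them at 2022 CPM. The gene was not called.

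Of the negative reads of npsn, 98.9% came from 1 cell, as did 93.0% of those of lyz. The gene lyz itself, at 5615 and 390.1 CPM and in 6 and 3 cells, passed the rule on fold but not that on shares. The same held for epx, at 1935 and 251 CPM and in 6 and 3 cells. The proteoglycan gene srgn, whose product packs granule proteins, was broader. It was at 0 to 14658 CPM (median 294) in positive cells, 18 of them at 10 CPM, against 0 to 1064 CPM and 4 negative cells, and its sum was 34.3-fold higher (32.9 to 35.8). At least 3 neutrophil genes were at 10 CPM in 19 of 22 positive cells (86.4%; 65.1 to 97.1%) and 5 of 21 negative cells (23.8%; 8.22 to 47.2%). With 5 genes required the shares were 59.1 and 4.76%. The neutrophil list holds genes that macrophages also use, such as ncf1, and 12 of those 19 positive cells also had the macrophage list. Of genes outside the lists, lect2, for a secreted chemotactic protein, and cpa1, for a carboxypeptidase, followed the 6 cells, and both were chosen after their values were seen. The lect2 gene was at 4150.0 to 17892 CPM there and at most 261 CPM in the other positive cells, and a second gene of that name was not called.

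Genes of lipid mediators and of the superoxide-making oxidase were higher in part. Of 11 measured eicosanoid genes, 3 were called higher and 0 lower, and the median log2 ratio was 2.46. The leukotriene B4 receptor gene ltb4r, which guides leukocytes, was at 0 to 859 CPM (median 42.9) in positive cells and at most 14.9 CPM in negative cells, with 14 and 1 cells at 10 CPM. The sum was 269-fold higher (163 to 481). The lipoxygenase genes alox5 and alox12 were called as well, from 6 and 7 positive cells. By contrast alox5ap, which presents arachidonate to the lipoxygenase, was at 399.5 and 200.4 CPM in 13 and 11 cells and was not called. Of 7 oxidase genes, cybb and ncf1 were called higher, against 6% of all measured genes. The gene cybb, for the catalytic chain that makes superoxide, was at 0 to 3368 CPM (median 807) in positive cells and 0 to 1375 CPM in negative cells. It reached 10 CPM in 19 positive and 5 negative cells. Its partner chain gene cyba was at 979.6 and 303 CPM, in 21 and 11 cells, below the 4-fold rule.

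Lysosome genes were higher across the list. All 24 measured lysosome genes had a log2 ratio above 0, with a median of 2.73, and 13 were called higher and 0 lower. Summed over the list, positive cells had 2065 to 64256 CPM (median 7306) and negative cells 963 to 6457 CPM (median 1747), so the ranges overlapped and the positive median lay above the highest negative cell. The protease gene ctsb was at 0 to 5037 CPM (median 434) against 0 to 434 CPM (median 3.99), and ctsd was at 793 against 80.2 CPM. The peptidase gene tpp1 was 17.1-fold higher (15.8 to 18.4), in 15 and 2 cells. Some of these rested much on 1 positive cell, which gave 60.4% of the positive reads of ctsk and 76.9% of those of ctsla, both cathepsin genes. With each gene's highest cell left out, 13 lysosome genes were again called higher. Of 6 class II antigen presentation genes 1 was called, the cathepsin S gene ctss2.2, against 6% of all measured genes called higher. The beta chain gene mhc2dab was at 1161 and 412 CPM in 14 and 11 cells.

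The transcription factors of myeloid cells divided into shared and one-sided genes. All 22 positive cells and 11 of 21 negative cells (52.4%, 29.8 to 74.3%) had at least 3 genes of that list. Of 12 measured genes, 4 were called higher and 0 lower, against 6% and 4.14% of all measured genes. The gene spi1, for PU.1, which is needed for myeloid cells, was at 149 to 2612 CPM in positive cells (median 670.4) and at 0 to 1147 CPM in negative cells (median 142). It was in 22 and 11 cells and was not called. Its relative spi1a was at 0 to 2566 CPM (median 1286) against 0 to 510.1 CPM (median 0), in 17 and 3 cells, and its sum was 14.5-fold higher (13.8 to 15.2). The macrophage factor gene mafb was in 9 positive cells and 1 negative cell, at 391 and 6.74 CPM. The gene cebpa, needed for granulocyte formation, was at 1290.2 and 705 CPM in 20 and 11 cells and was not called, and neither was irf8, a monocyte factor gene, at 267 and 405 CPM in 12 and 3 cells. Of the negative reads of irf8, 56.1% came from 1 cell.

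Immediate early and stress genes were also higher, with 5 of 13 called, 0 lower, and the median log2 ratio was 2.57. They included fosl2 and a junb gene, which form the AP-1 transcription factor, a pair of genes named zfp36l1, whose product speeds messenger RNA decay, and ddit3, a stress response factor gene. At least 3 of these genes were at 10 CPM in 15 of 22 positive and 4 of 21 negative cells. The called genes were mostly found in positive cells with the macrophage list. Of 15 positive cells with that list and 7 without it, fosl2 was in 8 and 1, the junb gene in 12 and 1 and ddit3 in 5 and 0. The zfp36l1 genes were in 12 and 1 and in 6 and 0. Such genes can respond to handling of cells, and their part in the other differences was not tested. Of 16 measured chemokine and growth factor receptor genes, 3 were called higher, csf1ra, csf3r and ccr12b.2. One was called lower, epor, the erythropoietin receptor gene. The homing receptor gene cxcr4 was at 1109 and 467 CPM, in 15 and 13 cells.

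Negative cells carried more transcripts of DNA replication and division. Of 27 measured cell cycle genes, 0 were called higher and 6 lower in positive cells, against 6% and 4.14% of all measured genes. The median log2 ratio was -2.31, and 25 of the 27 ratios were below 0. At least 3 of these genes were at 10 CPM in 18 of 21 negative cells (85.7%; 63.7 to 97.0%) and in 10 of 22 positive cells (45.5%; 24.4 to 67.8%), and the positive share was 18.2% when 5 genes were required. The negative share also fell under that rule, since some negative cells had only 3 or 4 of these genes. The 18.2% is therefore not to be set against 85.7%. The helicase subunit gene mcm6, which unwinds DNA for copying, was at 0 to 1919 CPM (median 499) in negative cells and at 0 to 612 CPM (median 0) in positive cells, with 15 and 6 cells at 10 CPM. Its sum was 4.99-fold higher in negative cells (4.797 to 5.201). Genes of mitosis came from fewer cells. The topoisomerase gene top2a was at 10 CPM in 5 negative cells, at 386 CPM in the sum with 58.5% of the reads from 1 cell, and had no read in positive cells. The proliferation marker gene mki67 was at 333 CPM in the negative sum, with 7 cells at 10 CPM, and had 1 read in positive cells. The count of 6 was 2 under an 8-fold rule.

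The kinase gene cdk6, which drives entry into the division cycle, showed one of the largest differences in share. It was at 0 to 712 CPM (median 159.9) in negative cells and at 0 to 174 CPM (median 0) in positive cells, with 19 and 6 cells at 10 CPM, and it was chosen after its values were seen. Among the genes named by size, uhrf1, which keeps DNA methylation through replication, was at 0 to 619 CPM (median 98.0) in negative cells, 14 of them at 10 CPM, against 1 positive cell. The gene ppat, for the first step of purine synthesis, was at 203 CPM in the negative sum, with 10 cells at 10 CPM. It had no read in positive cells, at least 1634-fold lower there against 3 reads. Likewise without a read in positive cells were srpk1b, for a kinase of splicing factors, and chchd10, for a mitochondrial protein. They were at 90.1 and 77.3 CPM in the negative sum, with 11 and 10 cells at 10 CPM. The other genes named by size were zpr1, rnf44, trim33, which is needed for red cell formation in zebrafish, nfe2l3, a transcription factor gene, and ppa1b, for a pyrophosphatase, with log2 ratios of -6.25 to -4.74. The genes nolc1, for a nucleolar protein, and exosc6, for a subunit of the RNA exosome, also belonged to this set.

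Stem and progenitor genes were mixed. Of 13 measured, 2 were called higher and 3 lower in positive cells, against 6% and 4.14% of all measured genes. The median log2 ratio was -1.75. At least 3 were present in 12 of 22 positive cells (54.5%, 32.2 to 75.6%) and 15 of 21 negative cells (71.4%, 47.8 to 88.7%). The lower genes were tal1 and lmo2, partners in early blood formation, and npm1a, for nucleophosmin. The first, tal1, was at 97.4 CPM in the negative sum, with 6 cells at 10 CPM, and had no read in positive cells. The gene npm1a was at 0 to 3162 CPM (median 969) in negative and at 0 to 1334 CPM (median 137) in positive cells, so the ranges overlapped. The higher genes were tie1 and tek, receptor kinase genes best known from blood vessels, in 9 and 6 positive cells and in 1 and 0 negative cells. No cell on either side had 3 genes of the endothelial list, of which 6 of 10 entries did not match the table. The factor gene myb was at 123 and 399 CPM, in 10 and 13 cells, and was not called. Counts for this list moved with the setting, and 1 gene was lower both with the mean of per-cell CPM and after thinning.

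The surface protein gene cd34, a progenitor marker in mammals, was among the clearer negative transcripts and was chosen after its values were seen. It was at 0 to 2917 CPM (median 750.3) in negative cells and at 0 to 469 CPM (median 0) in positive cells, with 13 and 4 cells at 10 CPM. Its sum was 16.1-fold higher (15.3 to 17.01) on the negative side. The transcription factor gene sox4, named by size, was at 0 to 3219 CPM (median 216) in negative cells, 11 of them at 10 CPM, and reached 10 CPM in 1 positive cell, at 126 CPM.

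Erythroid transcripts lay on the negative side. Of 15 measured erythroid genes, 6 were called lower and 0 higher in positive cells, and 13 were lower by fold alone, where the background was 19%. The median log2 ratio was -6.51, or -9.24 at the bounds. They came from few cells, with 6 of 21 negative cells (28.6%; 11.3 to 52.2%) and 1 of 22 positive cells (4.55%; 0.115 to 22.8%) having 3 genes of the list, and no positive cell had 5. The factor gene klf1, which turns on globin genes, was at 31.3 to 641 CPM in 5 negative cells and had no read in the other 38 cells. The ammonium channel gene rhag, of the red cell membrane, was at 834 to 2421 CPM in the same 5 cells and 0 in the other negative cells. The anion exchanger gene slc4a1 was in 4 of them, and gata1a, a master factor gene of red cells, in 4. The alpha globin gene hbaa1 was in 2 negative cells, with 74.3% of its reads from 1 of them.

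Lists of other blood lineages were present in few cells. The thrombocyte list was present in 0 of 22 positive and 2 of 21 negative cells, although 2 of its 5 measured genes were called higher in positive cells. These were fn1 and f13a1b, for a chain of clotting factor XIII that macrophages also make in mammals, the latter at 0 to 4540.1 CPM (median 956) against 0 to 489 CPM. The B cell list was present in 1 and 4 cells. Of its 7 measured genes, 1 was called higher and 1 lower in positive cells, against 6% and 4.14% of all measured genes. The lower gene was ighm, for the heavy chain of immunoglobulin M, at 145 CPM in the negative sum and 10.1 CPM in the positive sum. It was in 8 negative and 3 positive cells. A swap70 gene was higher, at 430 and 176 CPM in positive cells with and without the macrophage list. In negative cells so divided it was at 70.3 and 23.5 CPM. The defining gene cd79a was in 1 cell on each side. The dendritic list was present in 0 positive and 2 negative cells. No cell on either side had the T cell, natural killer, eosinophil, mast cell, kidney, endothelial or stroma list. For lists so defined, the floor of 3 cells allows 13.6% of positive and 14.3% of negative cells, and the exact intervals reach 15.4 and 16.1%. Few of their genes were measured, 2 each for T cell, natural killer, mast cell and kidney, 4 for eosinophil, 1 for stroma and 0 for endothelial. The rule of 3 genes drew on all matched genes of a list, measured or not. These numbered 16 for T cell, 15 for natural killer, 14 for kidney and 9 for stroma. There were 5 each for eosinophil and mast cell and 4 for endothelial. The small numbers of measured genes thus restate that these transcripts were low in the 43 cells. The limits hold for the lists so defined and do not bound the kinds of cell. In 1 negative cell the T cell list gene gata3 was at 3603 CPM, and 2 natural killer genes were at 10 CPM. The recombinase genes rag1 and rag2 came from 1 negative cell, at 6354 and 4286 CPM there.

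**Figure D4:**
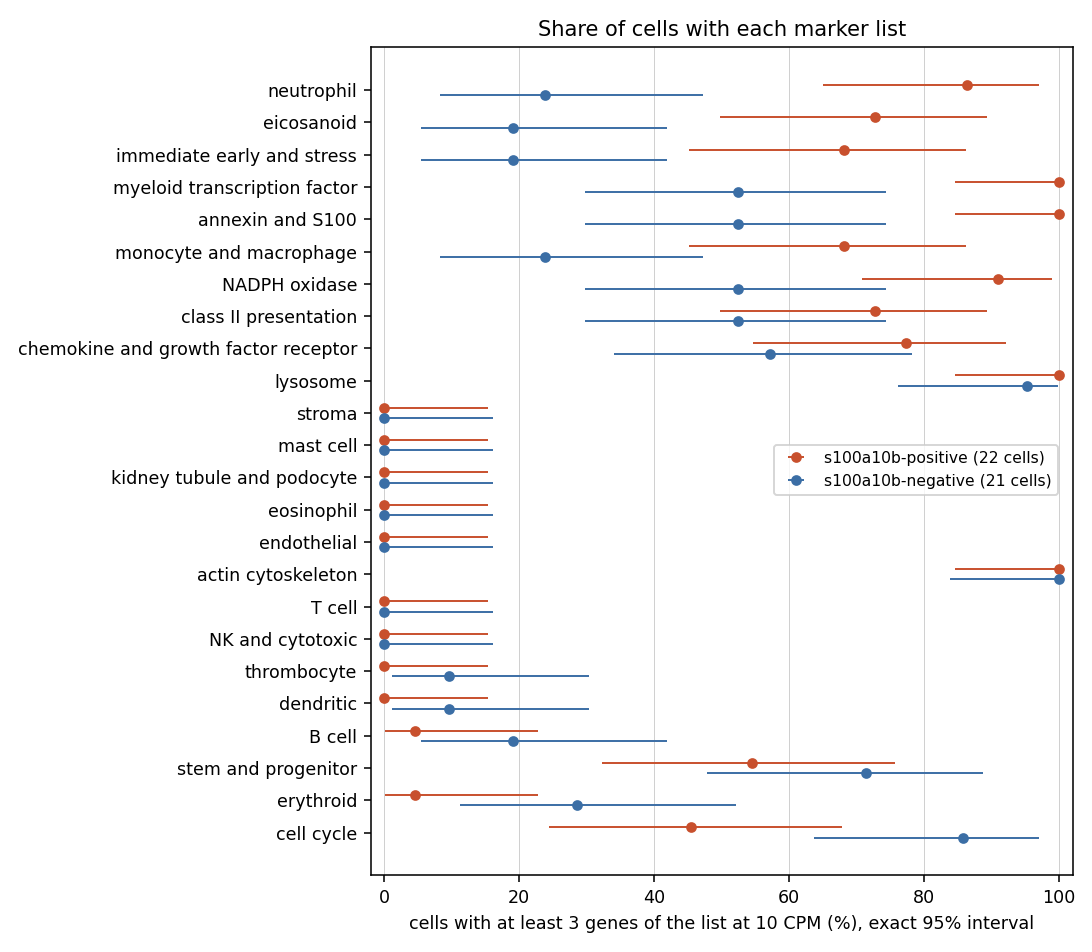
Percent of positive (n = 22) and negative (n = 21) cells with at least 3 genes of a list at 10 CPM, with exact Clopper-Pearson 95% intervals. The complement and ribosome biogenesis lists, added later, are not drawn. Of the lists drawn, neutrophil, eicosanoid and immediate early lists differ most toward positive cells, and cell cycle and erythroid lists toward negative cells.

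Clustering of the 43 cells without s100a10b gave 5 clusters that followed the split closely. Cluster 1, macrophage-like, held 13 positive and 0 negative cells, and 12 of its 13 cells had the macrophage list, although none of its 10 leading genes by fold is on that list and 11 also had the neutrophil list. Cluster 3, neutrophil-like, held 6 positive cells and 1 negative cell and was led by npsn and lyz. Cluster 5, erythroid-like, held 0 positive and 5 negative cells and was led by slc4a1 and rhag. Cluster 2, led by sox4, held 2 positive and 11 negative cells and was left unnamed. Cluster 4, with 1 positive and 4 negative cells, was led by irf5 and was also left unnamed, with a median of 1466 detected genes against 2322 to 3752 in the other clusters. With resolution 0.5 or 1000 variable genes, a cluster of 13 positive cells, a cluster of 6 positive cells with 1 negative cell and a cluster of 5 negative cells were again found. With 5 principal components the first of these was divided and not all of it stayed free of negative cells. The only cluster without negative cells then held 7 cells, and another held 5 positive cells and 1 negative cell.

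Within positive cells, the level of s100a10b was broad in each kind. It was 1670.5 to 5573 CPM (median 2993) in the 13 cells of cluster 1 and 240 to 4254 CPM (median 1914) in the 6 positive cells of cluster 3. The positive cells of cluster 2 had 143 and 1400 CPM, and the cell of cluster 4 had 231 CPM. The ranges of clusters 1 and 3 overlapped, and of the 4 lowest positive cells none was in cluster 1. Cells with the macrophage list (15) had 143 to 5573 CPM, and those without it (7) had 240 to 4254 CPM.

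These 15 and 7 positive cells shared the near universal genes and differed in others. The 7 were 6 cells of cluster 3 and 1 cell of cluster 1, the positive cell with the fewest reads (268422). The macrophage list made this division after the values were seen, so its own genes only describe it. The genes icn, tmsb1 and fcer1gl were in every positive cell, so any division would find them in all 15 and all 7. The gene anxa2 was in 13 and 6, cebpb in 14 and 7, and cybb in 13 and 6. In contrast grna.1 was in 14 and 0, spi1a in 15 and 2, irf8 in 12 and 0, mhc2dab in 13 and 1, and anxa5b in 12 and 1. The 1 cell with anxa5b among the 7 was that of cluster 1. The cells without the macrophage list had alox5ap in 7 of 7 at a median of 1207 CPM, against 6 of 15 and a median of 0. They had alox5 in 5 of 7 against 1 of 15, and myb in 7 of 7 at 311 CPM against 3 of 15. Their cebpa was at a median of 2478 CPM against 840.2 CPM. The lysosomal gene ctsd was in 13 of 15 and 2 of 7. Set against all negative cells, the 15 alone gave 14 macrophage and 1 neutrophil genes called higher, and the 7 alone gave 0 and 8.

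Negative cells were of several kinds too. The 5 with the macrophage list were all in cluster 2 and had csf1rb in 5, cd68 in 3 and a gene named mpeg1 in 3, but none of them reached 10 CPM of c1qa, c1qb, c1qc, marco, csf1ra or anxa2. Among these 5 were the 2 negative cells with the dendritic list, and both also had the B cell list. In the 11 negative cells of cluster 2, csf1rb was at a median of 794 CPM, cd34 at 1979 CPM and cdk6 at 392 CPM, and sox4 was in 10 of them. In the 5 erythroid-like cells, mcm7 was at 448 to 589 CPM and uhrf1 at 96.6 to 306 CPM. None of these 5 cells had a csf1rb read.

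Some cells crossed the pattern. The negative cell of cluster 3 had no s100a10b read but had npsn at 6352 CPM, lyz at 9169.5 CPM and icn at 486 CPM, and no fcer1gl or anxa2. Of the positive cells of cluster 2, the one at 143 CPM of s100a10b had 11 cell cycle genes at 10 CPM, the only positive sox4 value above 10 CPM and no c1qb or c1qc read. The other, at 1400 CPM, had 8 cell cycle genes at 10 CPM. It also had the highest summed eosinophil list level of all cells, 10470 CPM, with 1 gene of that list at 10 CPM and no epx read. Its summed complement list level, 20512 CPM, was the highest as well. No kind was given to this cell. Neither had an anxa2 read. The positive cell of cluster 4 had 10 macrophage genes at 10 CPM, among them c1qc at 3688 CPM, the highest of all cells. That cell and the 2 of cluster 2 were thus the positive cells outside the macrophage-like and neutrophil-like clusters.

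**Figure D5:**
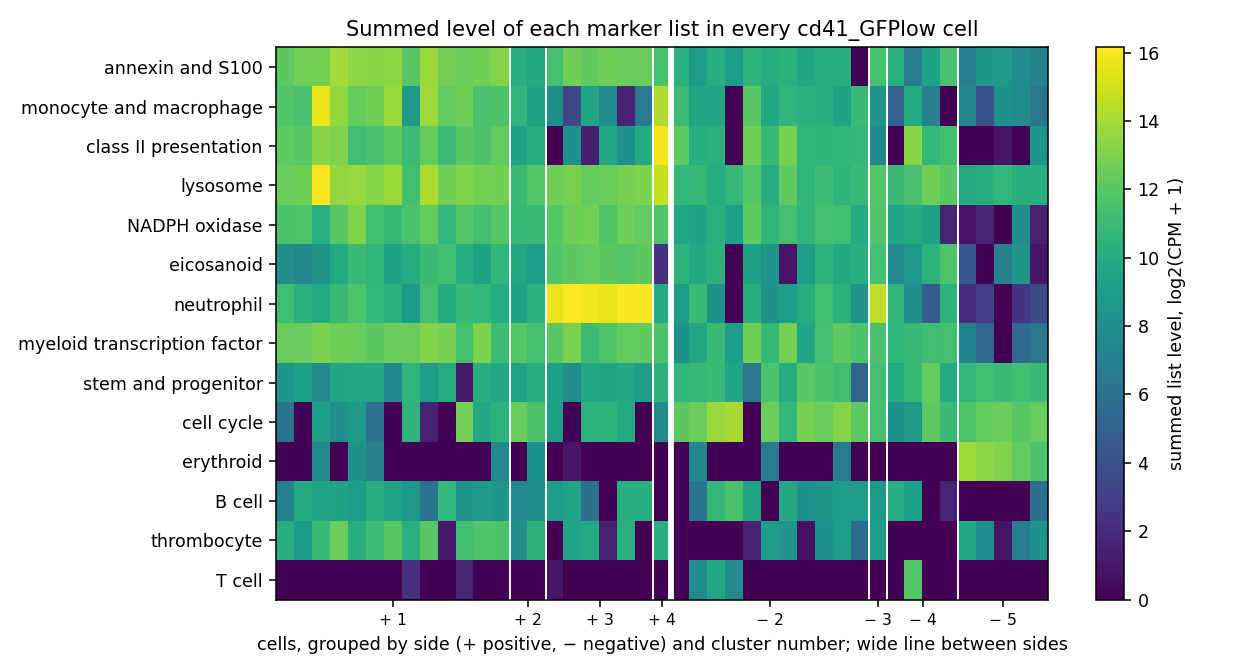
Summed level of 14 marker lists, as log2(CPM + 1), in every cell, with positive cells left of the wide line and negative cells right of it, grouped by cluster number. The 6 positive cells and 1 negative cell of cluster 3 stand out for neutrophil genes and the 5 negative cells of cluster 5 for erythroid genes.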

How the data were processed

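Single cells of 6 reporter lines were sorted into wells and sequenced, and the 43 cd41_GFPlow cells are compared here. The deposited values are whole-number counts of reads per gene and cell, not normalized. The authors' table of cells gives mapping in percent of read pairs, and duplicates as a fraction per the file headers. The submitters' processing notes name STAR, Picard, featureCounts and GRCz10, with no parameters. Strand use and the treatment of reads shared by gene copies are not given in the sources used here.

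CPM was computed as reads over the total of a cell, or of a side, per 1000000. Log2 ratios used a pseudocount of 1 CPM. Genes were named by rule as the 12 largest ratios in each direction among called genes with 50 CPM or more in the sum and 10 CPM or more in 40% or more of the higher side's cells, leaving out clone names. Symbols came from the gene name table. The 24 gene lists hold 414 entries, of which 62 did not match and 49 matched by a shortened symbol, a way of matching chosen after the table was seen; 2 further lists, complement and ribosome biogenesis, were added after the values were seen. The members and lists were chosen with earlier results of these data known. A list was present in a cell with at least 3 of its genes at 10 CPM. Cells were clustered on the 2000 most variable genes found in at least 5 cells, with 10 principal components, 10 neighbours and Leiden resolution 1, without s100a10b. No doublet caller was run on sorted single wells. With 1 sample there was no test between sides. The 95% intervals (exact Poisson, exact Clopper-Pearson) and floors of 3 reads or cells cover counting error only. Alternatives changed the fold, filters, pseudocount, scaling, thresholds, thinning and cells left out. The rule for calling genes was tested on simulated cells with changes larger than 4-fold. The rule for lists and the clustering were not tested in this way. Python 3.11.15, numpy 2.4.6, pandas 2.3.3, scipy 1.17.1, scanpy 1.11.5 and matplotlib 3.10.9 were used.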

Additional observations from a re-analysis of the deposited data

How the results depend on the processing

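No paired analysis was possible because both sides belong to 1 sample and the labels give no replicate numbers. The 561 genes higher in positive cells were 1835 by fold alone, and counts under the other settings were within 1.5 times. The 387 lower genes were 1780 by fold alone, 219 under an 8-fold rule, 255 with a pseudocount of 10 CPM and 602 without cells of under 1000 detected genes. Erythroid genes lower numbered 13 by fold alone, and cell cycle genes lower 15 by fold alone and 2 under an 8-fold rule. When 5 genes of a list were required, the shares of positive cells were 0% for erythroid, 59.1% for neutrophil and 18.2% for cell cycle genes, and that of negative cells was 4.76% for neutrophil genes. The following alternatives were chosen after seeing the data. With only the positive cells that had the macrophage list, 1 neutrophil gene was higher. With only the positive cells without it, 0 macrophage genes were higher, 958 genes and 12 cell cycle genes were lower, and the log2 ratio of grna.1 was reversed at -0.28. In that setting grna.1 was at 0 CPM against 0.21 CPM, so it was near absent on both sides and not higher in negative cells. The 0 macrophage genes follow largely from the list that divided the cells. Without the negative cells that had the macrophage list, 10 erythroid and 11 cell cycle genes were lower. The share of all measured genes called lower in that setting is not given here, and 4.14% is of all negative cells. These 2 counts therefore do not show a change particular to those lists. The cause of these changes was not tested. All 24 genes named by size kept their call under the alternatives planned at the start, and 16 did so with only the positive cells without the macrophage list. With 1 cell more or less, the shares above move by several percentage points, and depth limits genes of few reads.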

Other observations

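Genes that build ribosomes were lower in s100a10b-positive cells as a group. The list was put together after nolc1 and exosc6 had been seen among the lower genes, so it is a description only. All 42 measured genes of the list had a log2 ratio below 0, with a median of -1.82 against -0.07 for all measured genes, and 15 were called lower and 0 higher, against 4.14% and 6% of all measured genes. Summed over the list, positive cells had 0 to 8704 CPM (median 2175) and negative cells 2504 to 16654 CPM (median 8708). The ranges overlapped, and the negative median was about level with the highest positive cell.

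The gene nop56, for a core protein of the particles that modify ribosomal RNA, was at 0 to 1316 CPM (median 3.497) in positive cells and at 4.25 to 1894 CPM (median 726) in negative cells, with 10 and 20 cells at 10 CPM. Its sum was 4.09-fold higher in negative cells (3.97 to 4.21). The gene nolc1 was at 0 to 3165 CPM (median 203) in negative cells, 13 of them at 10 CPM, against 2 positive cells. The gene ncl, for nucleolin, was at 578 and 1434 CPM, in 20 and 19 cells, and was not called. The count of 15 was 18 with only the positive cells without the macrophage list and 20 with only those that had it, each set against all negative cells. Over all measured genes, 958 were called lower with the former cells and 387 with all positive cells. The rise from 15 to 18 was thus smaller than the general one. The count over all genes for the latter cells is not given here.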
